A study of Mus musculus with 4 samples.

Results

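The neurotrophins are secreted growth factors that keep neurons alive and adjust the strength of their synapses. Brain-derived neurotrophic factor (Bdnf) and neurotrophin-3 (Ntf3) are the 2 ligands described here. Their signal is read by the receptor tyrosine kinases TrkB (Ntrk2) and TrkC (Ntrk3), by the p75 receptor (Ngfr), which binds all neurotrophins, and by sortilin (Sort1), which sorts the precursor of BDNF inside the cell and joins p75 in binding precursor forms at the surface. In the hippocampus, Bdnf is made mainly by excitatory neurons and its transcription rises with their activity, and TrkB is carried by neurons in its kinase form and by astrocytes mostly in a shortened form without the kinase. These 6 genes were taken as a list by gene symbol, each to be represented by its brightest probe set, and all 6 were found among the 30917 gene symbols and 33793 probe sets of the array. Each had 1 probe set, marked in the array annotation as unique, so no choice between probe sets was needed.

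The values come from 4 Affymetrix Mouse Gene ST arrays, each hybridized with RNA from 1 right hippocampus, taken from males at postnatal day 90. Of these, 2 arrays are labelled IPMK WT (Ipmk f/f littermate controls without Cre) and 2 are labelled IPMK cKO (Ipmk f/f with CaMKII-Cre), so all mice carry the floxed alleles, and Cre acts in forebrain excitatory neurons, while interneurons, glia and vessels in the sample keep the gene. The mice were behaviorally naive, and the comparison asks whether loss of Ipmk from these neurons changed hippocampal transcripts. Values are on the log2 scale after robust multi-array averaging (RMA), where a difference of 1 is a factor of 2. The targeted gene went against the labels: the brighter probe set of Ipmk read 7.68 and 7.71 under the label IPMK WT against 8.44 and 8.78 under IPMK cKO, and its other probe set 5.78 and 5.52 against 6.97 and 6.43. Syt2, a synaptotagmin gene that the study followed up, read 6.34 and 6.63 under IPMK WT and 8.13 and 7.61 under IPMK cKO. This is the direction that the study reported for Syt2 in IPMK cKO hippocampus, from arrays, quantitative PCR and Western blots. The study's array result came from this same series, so its match here is no check of the labels. The study states more arrays per genotype than the 2 per label used here. Ipmk transcript and IPMK protein in hippocampus were also measured in the study, by quantitative PCR and Western blot. Those measurements are not among the values used here. Whether the Ipmk probes lie in the deleted part is not given in the sources used here, and every direction below is that of the labels. Array medians lay between 5.10 and 5.15. Markers of excitatory neurons, such as Slc17a7 and Camk2a, averaged 9.85 to 10.08 per array, and markers of neighboring thalamus and striatum 6.12 to 6.52. Choroid plexus markers averaged 8.74 to 9.56 per array, and no array was without them.

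Bdnf is transcribed from several start sites into messages that share 1 coding exon. Its probe set of 39 probes gave 1 value for the gene, with 17 of the 39 assigned directly to the listed transcript. Promoter windows of 250 bases before to 50 after the start (build GRCm38.p6) were available for 4 of the 6 genes. There were 7 for Bdnf, 2 for Ntf3 and 1 each for Ntrk2 and Ngfr, and none were at hand for Ntrk3 and Sort1. IPMK binds CREB-binding protein, the coactivator of CREB, and Bdnf is a classic CREB target, so the windows were searched on both strands for the CREB half-site TGACG and for the full element TGACGTCA, which contains it. Of the 11 windows, 1 held the half-site, at the Bdnf start site known as promoter IV, and none held the full element. Over all 32851 windows of this length the shares were 20.8% and 1.79%. The Bdnf window with the half-site is shown with the promoters of Ntf3 and Ntrk2, the members whose arrays did not overlap between the labels. Capitals mark the half-site, which lies 35 bases before the start in Bdnf, reads CGTCA on the strand shown because it is on the opposite one, and is not in the windows shown for Ntf3 and Ntrk2.
Bdnf, chr2:109692186-109692485, plus strand: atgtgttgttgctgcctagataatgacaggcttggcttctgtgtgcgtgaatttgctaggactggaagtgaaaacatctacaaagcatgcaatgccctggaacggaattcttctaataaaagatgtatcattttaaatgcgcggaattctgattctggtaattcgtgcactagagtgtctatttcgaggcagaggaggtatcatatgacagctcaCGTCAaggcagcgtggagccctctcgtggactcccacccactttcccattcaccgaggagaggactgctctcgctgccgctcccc
Ntf3, chr6:126166695-126166994, minus strand: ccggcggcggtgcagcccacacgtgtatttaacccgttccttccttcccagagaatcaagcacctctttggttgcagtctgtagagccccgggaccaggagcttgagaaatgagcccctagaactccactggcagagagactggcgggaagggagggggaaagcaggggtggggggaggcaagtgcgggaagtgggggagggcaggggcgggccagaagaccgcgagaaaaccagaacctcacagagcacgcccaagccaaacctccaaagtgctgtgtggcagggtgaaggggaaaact
Ntrk2, chr13:58806319-58806618, plus strand: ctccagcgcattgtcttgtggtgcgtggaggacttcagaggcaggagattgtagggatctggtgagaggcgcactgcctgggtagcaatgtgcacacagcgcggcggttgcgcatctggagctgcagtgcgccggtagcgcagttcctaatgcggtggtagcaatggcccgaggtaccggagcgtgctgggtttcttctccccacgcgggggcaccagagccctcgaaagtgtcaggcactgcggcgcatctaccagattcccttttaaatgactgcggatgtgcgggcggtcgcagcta

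None of the 6 genes passed an adjusted p under 0.05 between the labels, and none had an unadjusted p under 0.05 in limma, in the local pooled error (LPE) test of the study's methods or in the test of averages. The arrays of the labels did not overlap for Ntf3, which was lower in both arrays labelled IPMK cKO, and for Ntrk2, which was higher in both. For Bdnf, Ntrk3, Ngfr and Sort1 the arrays overlapped. Non-overlap in 2 of 6 genes stands beside 27.2% of all probe sets, with 12.4% higher and 14.8% lower in the arrays labelled IPMK cKO, so it is near the background. Across the 33793 probe sets of the array, 0% passed the adjusted threshold in limma and 966 (2.86%) had an unadjusted p under 0.05. The median absolute log2 difference was 0.07 over the 6 genes and 0.09 over all probe sets. With 2 arrays against 2, the smallest p that an exact permutation test can give is 0.333. Syt2, with a log2 difference of 1.39 (standard error 0.21) between the labels, also had limma's adjusted p = 0.9999. An adjusted p of this size therefore does not show that a gene is unchanged.

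**Figure D1:**
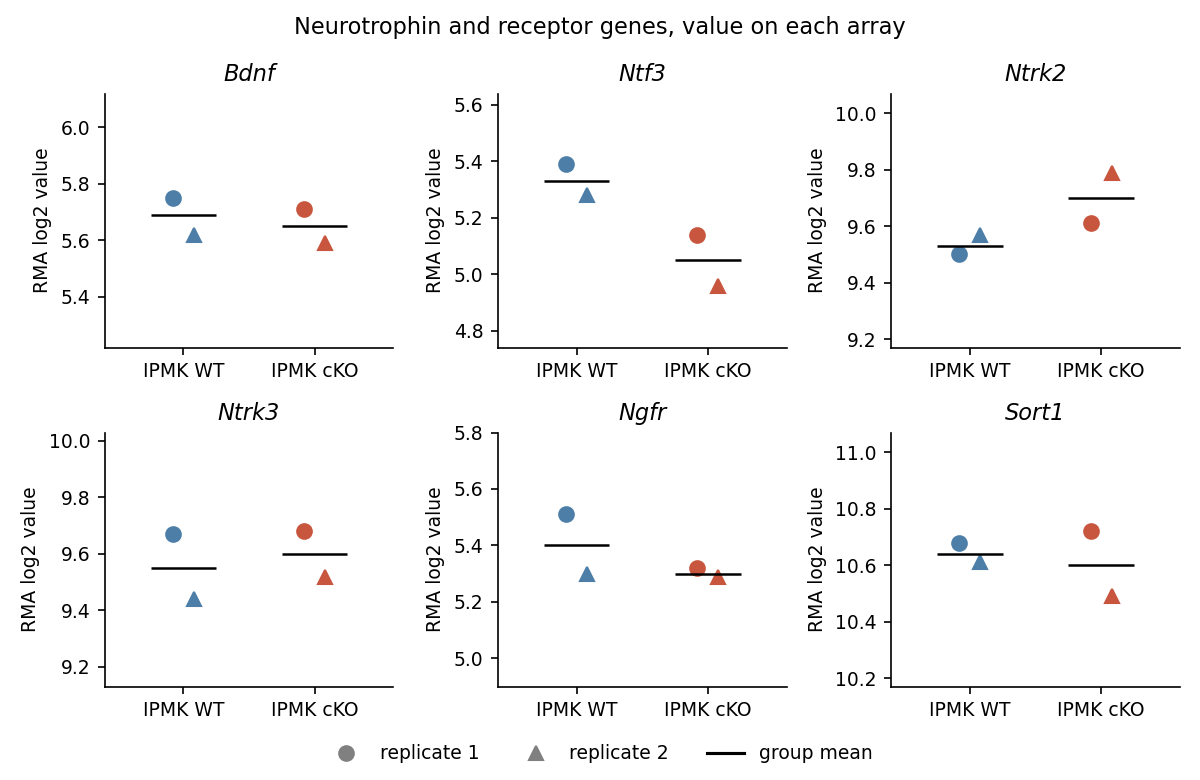
RMA log2 value (vertical axis, the same span of 0.9 in every panel) of each of the 6 genes on each of the 4 arrays by label, circles for replicate 1, triangles for replicate 2 and a bar for the group mean. Ntf3 and Ntrk2 separate the labels, while in Bdnf, Ntrk3, Ngfr and Sort1 both circles lie above both triangles.

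Bdnf, the main activity-dependent neurotrophin of the forebrain, had nearly the same level under both labels. Its probe set on the plus strand of chromosome 2 (109674700 to 109727047 in the array annotation) read 5.75 and 5.62 under the label IPMK WT and 5.71 and 5.59 under IPMK cKO. The replicates of a label lay 0.14 and 0.12 apart, further than the labels did. The group means were 5.69 ± 0.10 and 5.65 ± 0.09 (SD, n = 2), a log2 difference of −0.04 (standard error 0.13, 95% interval −0.36 to 0.28, limma's adjusted p = 0.9999). On the linear scale this is 0.97-fold, with an interval from 0.78-fold to 1.21-fold, so a 1.5-fold difference either way lay outside it. Without IPMK WT replicate 1 the difference was 0.03 and without replicate 2 of those labelled IPMK cKO it was 0.02, the other sign.

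Ntf3, the ligand of TrkC, had the largest difference of the 6 genes. Its probe set of 23 probes on the minus strand of chromosome 6 (126101412 to 126166744) read 5.39 and 5.28 under the label IPMK WT and 5.14 and 4.96 under IPMK cKO. The higher array labelled IPMK cKO lay 0.14 below the lower array labelled IPMK WT, while replicates lay 0.11 and 0.17 apart. The group means were 5.33 ± 0.08 and 5.05 ± 0.12 (SD, n = 2), a log2 difference of −0.28 or 0.82-fold (standard error 0.13, 95% interval −0.61 to 0.04, unadjusted p = 0.0757 and limma's adjusted p = 0.9999). By limma's p it stood at place 1604 of all probe sets. Its interval reached 0.66-fold, so a fall of 1.5-fold was not outside it, the only such case among the 6. With 1 array left out the difference stayed negative, between −0.20 and −0.37. Ntf3 is known from the dentate gyrus and area CA2, and the marker lists of these subfields had median log2 differences of −0.03 for 5 dentate granule cell genes and 0.00 for 5 CA2 genes. These medians ran from −0.23 to 0.09 and from −0.13 to 0.12 with 1 array left out.

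The levels of Bdnf, Ntf3 and Ngfr were low on these arrays, above most but not all probe sets of a floor reference. As a reference for genes silent in brain, 234 probe sets of the vomeronasal receptor family Vmn1r had a median of 2.77 and a 95th percentile of 4.20. Of these, 8 read over 5, and the highest read 6.96. The means over the 4 arrays were 5.67 for Bdnf, 5.19 for Ntf3 and 5.35 for Ngfr, against 9.62 for Ntrk2, 9.58 for Ntrk3 and 10.62 for Sort1. Probes differ in brightness, so these levels do not rank the transcripts by amount.

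Ntrk2 encodes TrkB, the receptor of BDNF. Its 22 probes on the plus strand of chromosome 13 (58806596 to 59133970) gave 1 value for the gene, with 20 of the 22 assigned directly to the listed transcript. Which forms each probe reads is not given in the sources used here, so kinase and shortened forms are not told apart. It read 9.50 and 9.57 under the label IPMK WT and 9.61 and 9.79 under IPMK cKO. The labels were separated by 0.03, less than the 0.07 and 0.18 between replicates. The group means were 9.53 ± 0.05 and 9.70 ± 0.13 (SD, n = 2), a log2 difference of 0.16 or 1.12-fold (standard error 0.13, 95% interval −0.16 to 0.48, limma's adjusted p = 0.9999). The difference was 0.07 without replicate 2 of IPMK cKO and 0.25 without replicate 1 of IPMK cKO.

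Ntrk3 encodes TrkC, which reads neurotrophin-3. Its 39 probes on the minus strand of chromosome 7 (78192114 to 78578408) read 9.67 and 9.44 under the label IPMK WT and 9.68 and 9.52 under IPMK cKO. In each label the replicate 1 array was the higher, and the labels overlapped. The log2 difference was 0.04 (standard error 0.14, 95% interval −0.31 to 0.40, limma's adjusted p = 0.9999). Without IPMK WT replicate 2 it was −0.07, and without IPMK cKO replicate 1 it was −0.03.

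Ngfr, the p75 receptor, has 16 probes on the minus strand of chromosome 11 (95568818 to 95587735). It read 5.51 and 5.30 under the label IPMK WT and 5.32 and 5.29 under IPMK cKO, so replicate 1 of the arrays labelled IPMK WT was high and the other 3 lay close together. The log2 difference was −0.10 (standard error 0.13, 95% interval −0.42 to 0.23, limma's adjusted p = 0.9999). Without that high array it was 0.005. Markers of meningeal and perivascular fibroblasts averaged 7.40 in the same array and 6.61, 7.16 and 6.86 in the other 3 (replicate 2 of IPMK WT, then replicates 1 and 2 of IPMK cKO). Other lists peaked in that array too, among them choroid plexus (9.56), pericytes and smooth muscle (8.06) and endothelial cells (7.04). Markers of basal forebrain cholinergic neurons did not, with 4.38 there and 4.46, 4.43 and 4.34 in the other 3. The part of any of these cells in the Ngfr values was not tested.

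Sort1, the sorting receptor, was bright and read 10.68 and 10.61 under the label IPMK WT and 10.72 and 10.49 under IPMK cKO. Its 36 probes lie on the plus strand of chromosome 3 (108284091 to 108361511). Both the highest and the lowest array carried the label IPMK cKO. The log2 difference was −0.04 (standard error 0.14, 95% interval −0.38 to 0.30, limma's adjusted p = 0.9999), and it was 0.07 without IPMK cKO replicate 2. All these positions were copied from the annotation of the array, which names no genome build, and the 6 probe sets overlap their genes in the RefSeq table of GRCm38.p6.

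**Figure D2:**
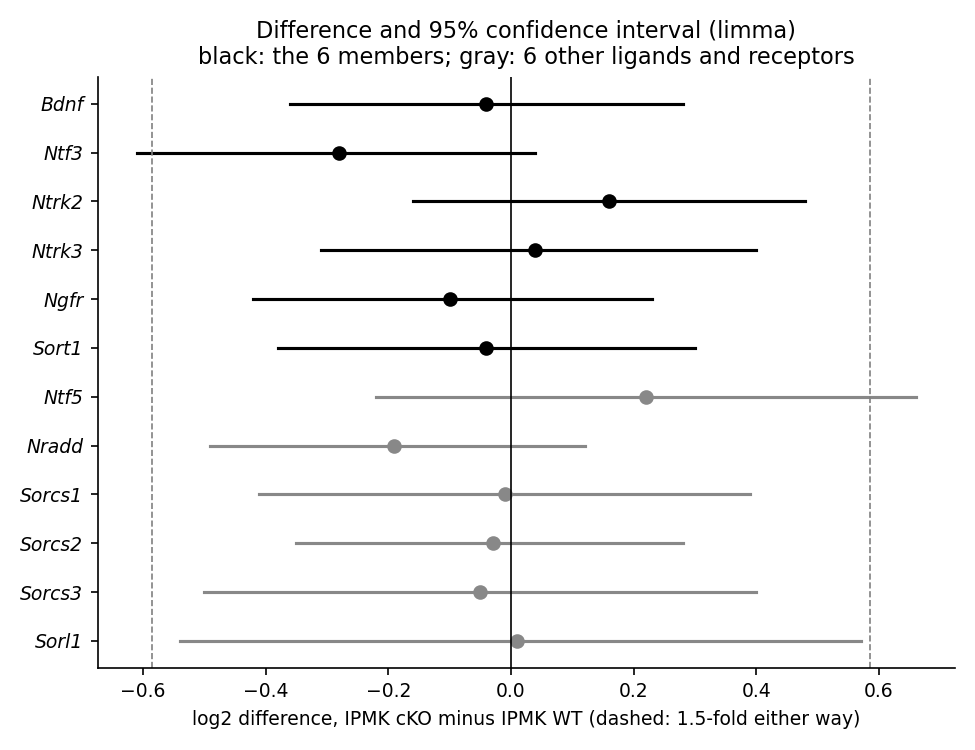
Log2 difference between the labels, IPMK cKO minus IPMK WT (horizontal axis), with its 95% confidence interval from limma for the 6 genes (black) and 6 other ligands and receptors (gray), and dashed lines at 1.5-fold either way. Every interval includes 0, and among the 6 genes that of Ntf3 alone, −0.61 to 0.04, crosses a dashed line.

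Arrays of the same replicate number deviated in the same direction within both labels for all 6 genes. The share of all probe sets that do so was not counted, so this is not read as a trait of the 6. Replicate differences of the labels correlated at 0.244 over probe sets. In Bdnf, Ntf3, Ntrk3, Ngfr and Sort1 the replicate 1 array was the higher under each label, and in Ntrk2 the replicate 2 array. Both replicate 1 arrays lay above both replicate 2 arrays in 4 of the 6 genes (Bdnf, Ntrk3, Ngfr and Sort1), against 22.7% of all probe sets, and the opposite held in 0 of the 6, against 22.0%. Averaged over the labels, replicate 2 minus replicate 1 was −0.13 for Bdnf, −0.14 for Ntf3, −0.19 for Ntrk3, −0.12 for Ngfr and −0.15 for Sort1, and 0.13 for Ntrk2. In Bdnf, Ntrk3, Ngfr and Sort1 this exceeds the size of the difference between the labels. The controls were littermates. Animal numbers in the sample descriptions lie closer together within a replicate number than between replicate numbers. The sources used here do not say which arrays share a litter or what else arrays of a replicate number share.

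**Figure D3:**
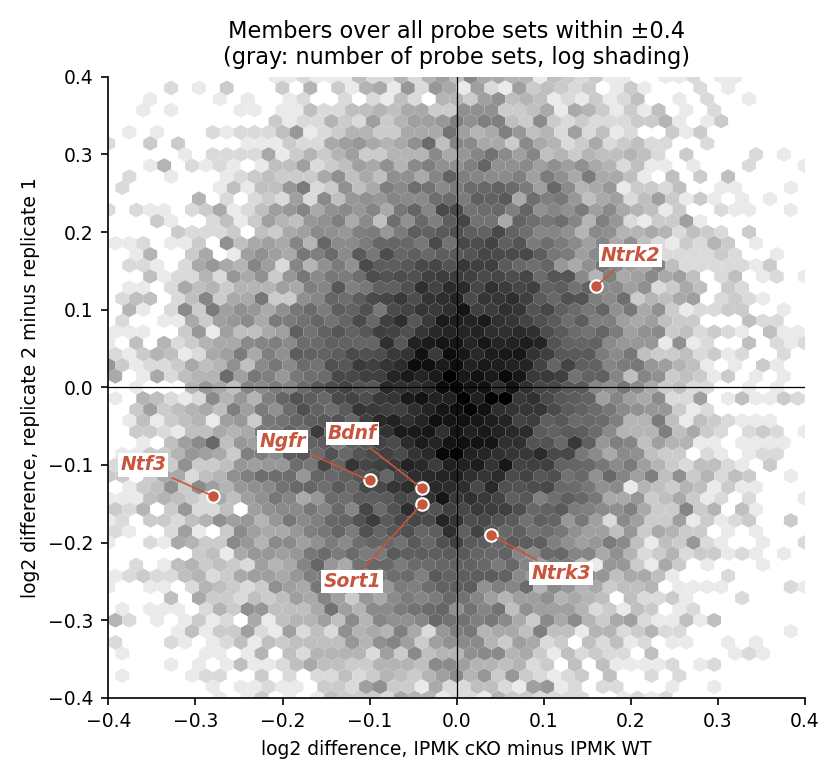
Log2 difference between the labels (horizontal axis) against that between replicate 2 and replicate 1 (vertical axis) for the 6 genes (red) over all probe sets within 0.4 of 0 on both axes (gray, darker with more probe sets on a log scale). Ntrk2 at 0.16 and 0.13 is the only one of the 6 in the upper right, and the other 5 lie below 0 on the vertical axis.

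Several lists of cell type markers also differed between replicate numbers in the same direction under both labels, while others, such as the choroid plexus list, did not. Astrocyte markers, among them Aqp4, Gfap and Slc1a3, averaged 8.90 and 9.32 in IPMK WT replicates 1 and 2 and 8.95 and 9.41 in IPMK cKO replicates 1 and 2, with both replicate 2 arrays above both replicate 1 arrays in 8 of 8 markers. Excitatory neuron markers averaged 10.04 and 9.92, and 10.08 and 9.85, with both replicate 1 arrays higher in 5 of 6. Between the labels, the median log2 difference was 0.06 over the astrocyte markers, all 8 with a higher mean and 0 without overlap, and −0.01 over the excitatory neuron markers. Neither kept its sign with 1 array left out, with medians from −0.20 to 0.34 and from −0.13 to 0.11. Oligodendrocyte markers had both replicate 2 arrays higher in 8 of 8 and microglia markers in 6 of 7. The part of these shifts in the values of Ntrk2, Bdnf and the other members was not tested, and in whole tissue fewer cells of a type and less RNA per cell cannot be told apart.

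**Figure D4:**
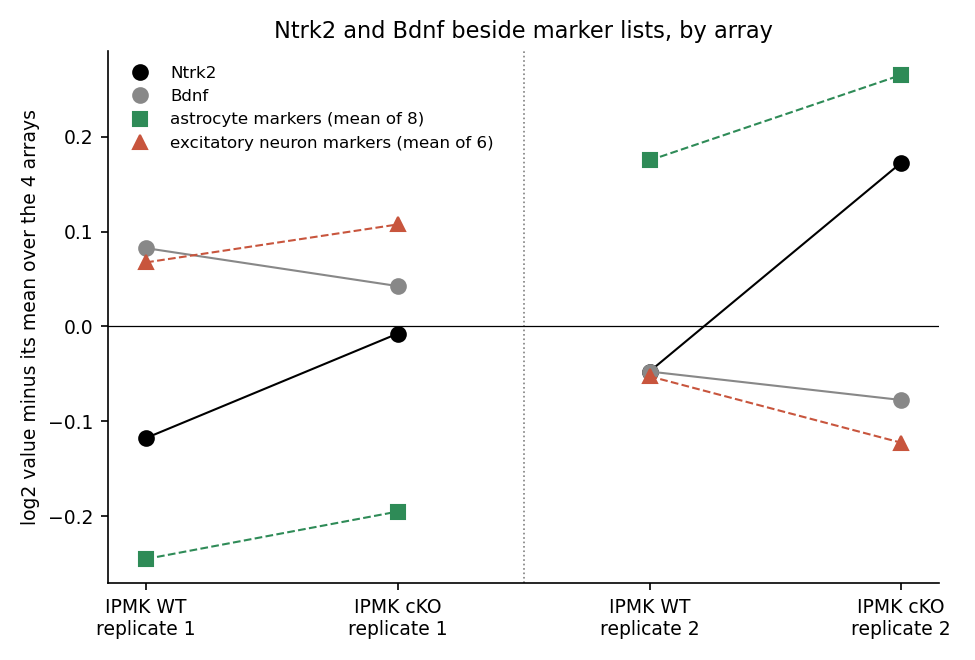
Log2 value minus its mean over the 4 arrays (vertical axis) for Ntrk2, Bdnf, the mean of 8 astrocyte markers and the mean of 6 excitatory neuron markers, with the arrays ordered by replicate number and lines joining the labels within a number. Ntrk2 was highest in replicate 2 of IPMK cKO (9.79), where the astrocyte markers also averaged highest (9.41). Other lists, such as that of neighboring thalamus and striatum (6.52), peaked in the same array. In replicate 1 of IPMK cKO, Ntrk2 read 9.61 and the astrocyte markers 8.95, against 9.57 and 9.32 in replicate 2 of IPMK WT. Bdnf was higher in both replicate 1 arrays, as were the excitatory neuron markers. Lists not plotted here, such as those of pericytes and smooth muscle and of fibroblasts, also averaged higher in both replicate 1 arrays.

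The remaining ligands and receptors of the family gave no call either. Of 8 such genes, 0 had an unadjusted p under 0.05 in limma, and the median log2 difference was −0.02 (all probe sets −0.00). Those with the lowest p were Nradd, a relative of p75, with a log2 difference of −0.19 (standard error 0.12) and Ntf5, the further TrkB ligand neurotrophin-4/5, with 0.22 (standard error 0.18). Sorcs1, Sorcs2, Sorcs3 and Sorl1, the other receptors of the sortilin family, had differences of −0.01, −0.03, −0.05 and 0.01.

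Over 149 pathway genes in 9 lists by role, 0 passed an adjusted p under 0.05 and 0 had an unadjusted p under 0.05 in limma, against 2.86% of all probe sets. Their arrays did not overlap in 32 genes, 20 with higher and 12 with lower values in the arrays labelled IPMK cKO, a total below the background of 27.2% (12.4% higher and 14.8% lower). For 15 genes of precursor processing and release the median log2 difference was 0.00, and the lowest p had Plg, the precursor of the protease plasmin (−0.13), and Pcsk1, a prohormone convertase (0.10). For 22 adaptors and scaffolds of Trk receptors the median was 0.05, with Shc2, a Shc adaptor, at 0.15 and Plcg1, the phospholipase that Trk receptors recruit, at 0.11. For 20 partners and cleaving enzymes of p75 it was 0.02, with Prdm4, a zinc finger protein that binds p75, at 0.17 and Bex1 at −0.16. The Ras and ERK cascade (18 genes) had a median of 0.01, with the ERK-activated kinase gene Rps6ka3 at 0.16, and the PI3K and Akt arm (16 genes) 0.02, with the mTOR inhibitors Tsc2 at 0.11 and Tsc1 at 0.10. For 15 genes of transport and turnover it was −0.05, with Ehd4, an endocytic protein, at −0.26 and the ubiquitin ligase gene Cbl at 0.17. Regulators of Bdnf transcription (19 genes) had a median of 0.01, with Srf, which IPMK is known to bind, at 0.16 and the neuronal activity factor Npas4 at 0.31. Genes are named in each list for the lowest p, and none of them passed the test.

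The list of 17 transcripts induced by BDNF or by activity had the highest median of the 9, 0.19, with 13 higher and 4 lower means and 4 genes without overlap, all higher in the arrays labelled IPMK cKO. Over all probe sets, 16349 means were higher and 17444 lower, and 12.4% were higher without overlap. None had an unadjusted p under 0.05 in limma. Fos, an immediate early transcription factor gene, read 5.19 and 5.95 under the label IPMK WT and 6.29 and 6.01 under IPMK cKO (log2 difference 0.58, standard error 0.27, limma's adjusted p = 0.9999). Dusp6, which encodes an ERK phosphatase, read 8.55 and 8.62 against 8.79 and 8.88 (0.24, standard error 0.12). Arc, a synaptic immediate early gene, chosen after its values were seen, read 7.69 and 8.62 against 8.79 and 8.66. In Fos and Arc, replicate 1 of the arrays labelled IPMK WT was far below the other 3. Bdnf differed little, with 5.75 in that same array and 5.59 to 5.71 in the other 3. The median of the list was 0.12 without that array, 0.28 without replicate 2 of the same label, and 0.06 and 0.26 without replicates 1 and 2 of the arrays labelled IPMK cKO.

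**Figure D5:**
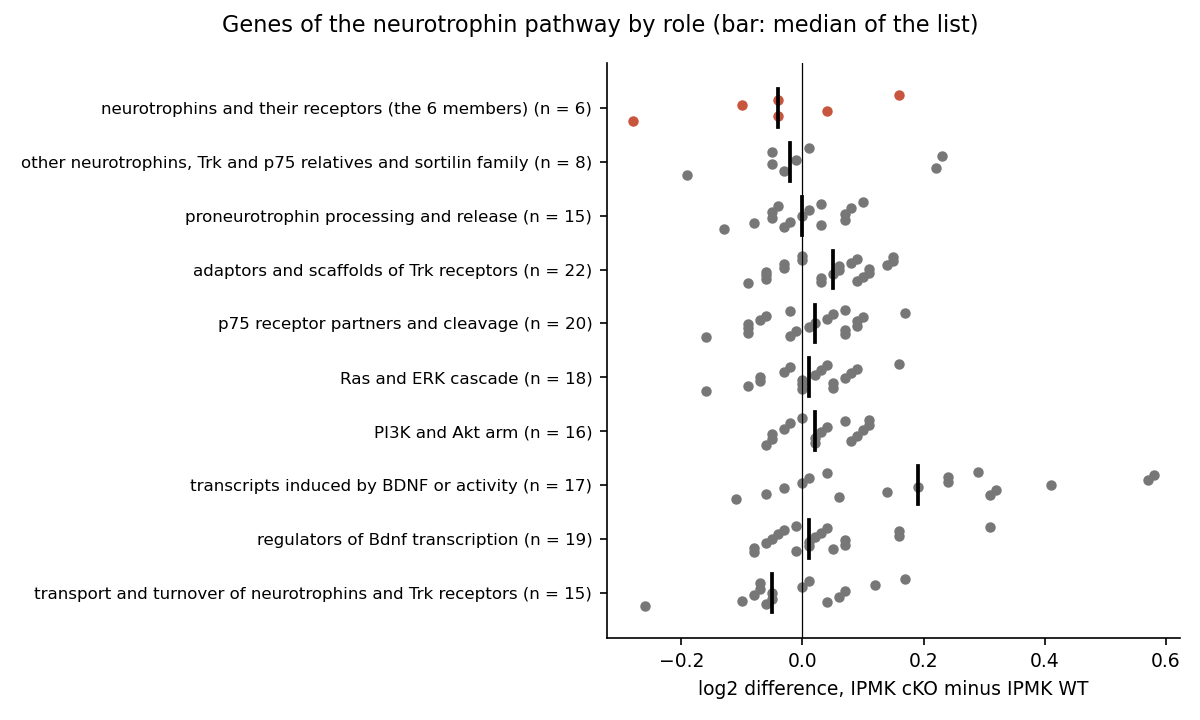
Log2 difference between the labels, IPMK cKO minus IPMK WT (horizontal axis), of each gene (points) in 10 lists by role, the 6 neurotrophin and receptor genes in red, with a bar at the median of each list. The medians lie between −0.05 and 0.05 except for the induced transcripts, at 0.19.

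The profiles of the 6 genes over the 4 arrays were shared by many others. Likeness was measured as the root mean square difference between profiles, each centered on its own mean, over 11705 genes whose mean log2 level reached 6. Closest to Bdnf were Gria1 and Tbk1, at 0.0045 each, to Ntrk3 Ypel4 (0.0023) and Neto2 (0.0060), and to Sort1 Snx7 (0.0067) and Men1 (0.0078). Closest to Ntrk2 were Tmem128 (0.0070) and Creld2 (0.0092), to Ngfr Gmeb1 (0.0087) and Eea1 (0.0092), and to Ntf3 Gm17576 (0.013) and Ube2j2 (0.015). Within 0.05 lay 1121 genes for Bdnf, 852 for Sort1, 578 for Ntrk3, 355 for Ntrk2 and 324 for Ngfr, and 20 for Ntf3, whose own profile had the widest spread (root mean square 0.16).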

How the data were processed

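RNA of 4 mouse hippocampi, 2 per label, was hybridized to Affymetrix Mouse Gene ST arrays. The authors summarized and normalized the scans to gene level by RMA in Affymetrix Expression Console and deposited log2 values per probe set and array. RMA subtracts background and equalizes the distributions of the arrays, so a change in total RNA cannot be seen, and depth is not a measure of arrays: their number limits the precision. The 2 tables hold the same values (largest difference 8.88e-16), and 4 repeated per-array columns were not used. The deposited comparison columns (fold, score and adjusted p-value) were not used.

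Of 33793 probe sets, 31873 carry a symbol, and 26234 were matched by Entrez identifier to the RefSeq table of GRCm38.p6. Labels were compared with limma 3.58.1 in R 4.3.3 over all probe sets without a block (prior degrees of freedom 3.69), with Benjamini-Hochberg adjustment. The functions were tested on simulated data. The members and lists were chosen with earlier results of these data known. Named are the members, in each list the genes with an unadjusted p under 0.05 (or else the 2 with the lowest p) and the 2 closest profiles. Some genes of the lists count in the totals and medians but are not reported here by name. The alternatives tried were a robust prior, an intensity trend, a replicate block, median centring, renewed quantile normalization, filters on dim probe sets, leaving out each array, the other table, averaging the probe sets of a gene, the LPE test of the methods (rewritten, 100 intensity bins) and the test of averages. Plots used matplotlib 3.10.9.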

Additional observations from a re-analysis of the deposited data

How the results depend on the processing

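None of the 6 genes and none of the 149 pathway genes passed an adjusted p under 0.05 under any of the alternatives run, and the lowest adjusted p of a member was 0.974. Over all probe sets LPE passed 2, neither of them a member or pathway gene, and limma 0 throughout. Of 24 differences of the members with 1 array left out, where the lone array is assumed to vary like the other label, 6 changed sign. Of 12 under another scaling 0 did, and the other 51 cannot change by construction. With 1 array left out the log2 differences ran from −0.106 to 0.030 for Bdnf, −0.371 to −0.197 for Ntf3, 0.070 to 0.252 for Ntrk2, −0.070 to 0.158 for Ntrk3, −0.201 to 0.005 for Ngfr and −0.157 to 0.074 for Sort1. A replicate block left each difference as it was and gave 0 calls, with 1502 probe sets at an unadjusted p under 0.05 (LPE 386, without replicate 1 of IPMK cKO 1539, and 541 and 123 with filters at mean log2 values of 4 and 6, from fewer probe sets). The correlation of the replicate differences of the labels was 0.244 over probe sets, and which arrays share a litter is not given in the sources used here. Among pathway genes, 1 to 3 had an unadjusted p under 0.05 under 7 of the alternatives. The filter at 6 left no value for Bdnf, Ntf3 and Ngfr, and each gene has 1 probe set, so its mean over probe sets is the same value. Except for fewer probe sets or arrays, the cause was not tested. A mean log2 value under 4, near background, was found in 29.1% of probe sets.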
